A study of Mus musculus with 6 samples.

Results

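Cxcl9 and Cxcl10 encode a pair of small secreted CXC chemokines. Whether other rows of the deposited table belong to the same genes is not known. For each gene 1 transcript row was taken, so that 2 of the 74007 rows are described. They were taken by identifier, ENSMUST00000113093_at for Cxcl9 and ENSMUST00000038816_at for Cxcl10, and they were selected on their measured difference between macrophages given lipopolysaccharide (LPS) and unstimulated macrophages on these same arrays. All 6 arrays were made from bone marrow-derived macrophages of female C57BL/6J mice aged 8 to 12 weeks and fed normal chow. Femoral marrow from 3 animals was cultured with human M-CSF, the macrophage growth factor, as a recombinant protein at 50 ng/mL, and every animal contributed a culture to both groups. The LPS group (3 arrays) received LPS at 10 ng/mL on day 7 for 4 h, and the unstimulated group (3 arrays) received none. RNA was hybridised to Affymetrix Mouse Exon 1.0 ST arrays, and the values are log2 expression per transcript, summarised over the probes of each set.

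Cxcl9 and Cxcl10 are ligands of the receptor CXCR3, through which they attract activated T cells and natural killer cells. In macrophages LPS binds TLR4 and CD14, and signalling through the adaptor TRIF leads to interferon-beta, which acts back on the same cells. Cxcl10 is known as a target of NF-kB, of interferon regulatory factors and of both interferon types, and Cxcl9 is best known as a target of interferon-gamma. In the RefSeq annotation of GRCm38.p6 both genes lie on chromosome 5 with Art3 listed between them. Art3 spans Cxcl10 on the other strand. Next to Cxcl10 lies Cxcl11, the third CXCR3 ligand, which the same annotation of the C57BL/6J genome lists as a transcribed pseudogene.

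The sequences before the transcription starts are shown because both genes were much higher with LPS and the proximal promoter is where NF-kB and interferon-activated factors are known to act on them. Each is the 250 bases before the annotated start, from RefSeq (GRCm38.p6), read 5′ to 3′ on the gene's own strand, which is the minus strand for both. The Cxcl9 window is chr5:92328080-92328329 and the Cxcl10 window is chr5:92348890-92349139. Capitals mark every match, on either strand, to the motifs described next.
Cxcl9: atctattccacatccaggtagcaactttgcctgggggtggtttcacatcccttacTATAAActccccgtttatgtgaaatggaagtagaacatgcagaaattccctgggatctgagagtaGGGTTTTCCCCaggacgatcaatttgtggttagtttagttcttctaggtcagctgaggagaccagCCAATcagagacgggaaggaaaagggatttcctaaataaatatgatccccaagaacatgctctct
Cxcl10: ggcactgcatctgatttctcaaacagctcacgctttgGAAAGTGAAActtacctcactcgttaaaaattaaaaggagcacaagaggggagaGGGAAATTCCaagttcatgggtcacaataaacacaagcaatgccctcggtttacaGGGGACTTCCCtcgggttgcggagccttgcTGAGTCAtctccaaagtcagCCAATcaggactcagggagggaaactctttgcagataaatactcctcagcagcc

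An NF-kB motif, searched as GGG, any 5 bases and then CC, matched in 1 stretch of the Cxcl9 window and in 2 stretches of the Cxcl10 window. In Cxcl9 the stretch holds 2 overlapping matches, GGGTTTTCCC on the gene strand and the reverse complement of a match on the other strand, between 130 and 120 bases before the start. In Cxcl10 the far match, GGGAAATTCC, begins 159 bases before the start, and the near stretch holds 2 overlapping matches between 104 and 94 bases before it. Such a match is common: 45.8% of 32851 RefSeq promoter windows of the same length hold at least 1. The share of windows with 2 separate stretches was not counted. The core of the interferon-stimulated response element, searched as GAAA, any 2 bases and GAAA again, matched once in Cxcl10, as GAAAGTGAAA from 213 to 204 bases before the start, and not in the Cxcl9 window. It was found in 2.98% of all windows. The core of the interferon-gamma-activated site, searched as TTCNNNGAA and present in 7.02% of all windows, matched in neither. Only these exact patterns were searched, so elements with other letters would have been missed.

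Other short matches differed in place. The letters TATAAA, searched for the TATA box, matched in Cxcl9 alone, 195 to 190 bases before the start, and in 12.4% of all windows. A match to these letters at that place does not make it a TATA box. An AP-1 motif, searched as TGANTCA and present in 6.75% of windows, matched in Cxcl10 from 74 to 68 bases before the start. The CCAAT box, searched as CCAAT and present in 33.8% of windows, matched in both. The longest run of bases shared by the pair on the gene strand surrounds that box: CAGCCAATCAG, of 11 bases, begins 68 bases before the Cxcl9 start and 57 bases before the Cxcl10 start, and it stands in 131 of the 32851 windows (0.399%). The AP-1 and CCAAT motifs and the shared run were looked for after the sequences had been seen. These matches describe the letters of the windows and no binding was measured.

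**Figure D1:**
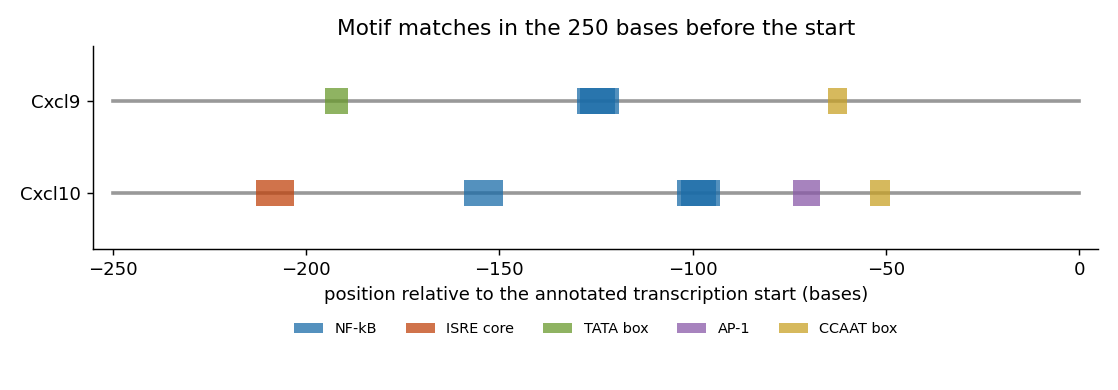
Motif matches in the 250 bases before the annotated start of Cxcl9 (upper line) and Cxcl10 (lower line), with the horizontal axis in bases relative to the start and each coloured block 1 match. The NF-kB stretches, 1 in Cxcl9 and 2 in Cxcl10, lie between 159 and 94 bases before the start, and the ISRE core match appears on the Cxcl10 line.

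Cxcl9 was near the bottom of the array scale without LPS and among its brightest rows with LPS. Its log2 expression was 12.50, 12.53 and 12.44 in LPS arrays 1, 2 and 3, against 6.92, 6.75 and 6.71 in unstimulated arrays 1, 2 and 3. The 3 LPS arrays lay within a narrow band, all far above the unstimulated arrays, and the lowest LPS value exceeded the highest unstimulated value by 5.52. The mean was 12.49 ± 0.045 with LPS and 6.79 ± 0.11 without (SD, n = 3 each), a difference of 5.69 ± 0.070 on the log2 scale (SE), or 51.7-fold. Within the same-numbered pairs of arrays the difference was 5.57, 5.78 and 5.73.

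Cxcl10 was already at a middling signal without LPS and reached almost the top of the scale with it. Its log2 expression was 13.67, 13.68 and 13.84 in LPS arrays 1, 2 and 3, against 8.23, 8.25 and 9.02 in unstimulated arrays 1, 2 and 3. For neither gene did the groups overlap, but both were chosen on this contrast and the share of all rows without overlap was not counted. For Cxcl10, unstimulated array 3 stood above the other 2 arrays of its group. The mean was 13.73 ± 0.095 with LPS and 8.50 ± 0.45 without (SD, n = 3 each), a difference of 5.23 ± 0.27 on the log2 scale (SE), or 37.5-fold. Within same-numbered pairs the difference was 5.44, 5.43 and 4.82, and the smallest belongs to pair 3. Whether the arrays of pair 3 share an animal is not settled. With unstimulated array 3 left out the Cxcl10 difference was 5.49.

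**Figure D2:**
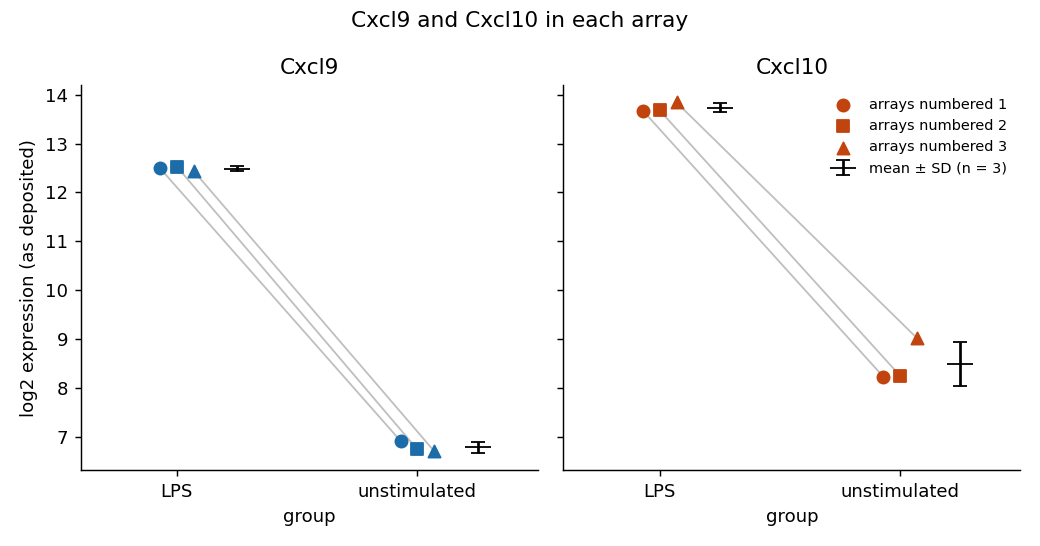
Log2 expression of Cxcl9 (left) and Cxcl10 (right) in the LPS and the unstimulated arrays, with grey lines joining same-numbered arrays and black bars giving the mean ± SD of 3 arrays. For both genes, which were chosen on this contrast, the LPS arrays lie above all unstimulated arrays. The share of all rows that do so was not counted. Unstimulated array 3 is set apart for Cxcl10 at 9.02.

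These differences chose the genes and are given without a test. As background for them, 2222 of the 74007 rows (3.00%) were at least 2-fold higher with LPS at a Benjamini-Hochberg adjusted p under 0.05 in limma. Ordered by size over all rows, the Cxcl9 difference ranked 7 and the Cxcl10 difference ranked 17, and 25 rows (0.0338%) were at least 32-fold higher. Both ranks were the same among the 71258 distinct sets of values. The median difference over all rows was -0.022. No other row shared all 6 values with either gene. A bulk array cannot tell more RNA per cell from more cells that carry the RNA.

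**Figure D3:**
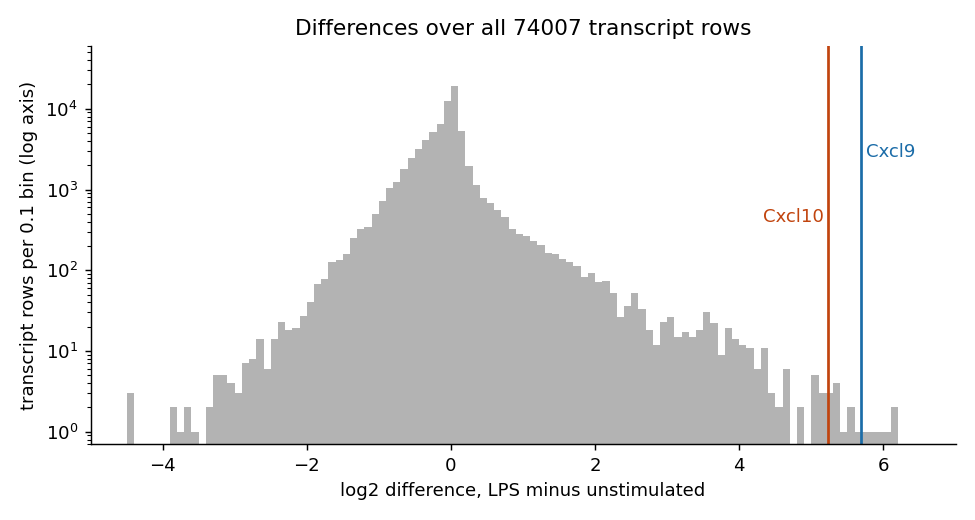
Distribution of the log2 difference, LPS minus unstimulated, over all 74007 transcript rows in bins of 0.1, with the number of rows on a log axis. Vertical lines mark Cxcl10 at 5.23 and Cxcl9 at 5.69, both in the sparse upper tail.

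The place of each gene within an array shows how far it moved on the signal scale. Cxcl9 stood at rank 440, 396 and 461 from the brightest row in LPS arrays 1, 2 and 3, against rank 59781, 64147 and 65592 in unstimulated arrays 1, 2 and 3. Cxcl10 stood at rank 9, 8 and 5 in LPS arrays 1, 2 and 3, against rank 31587, 31803 and 19963 in unstimulated arrays 1, 2 and 3. Such ranks compare signals and not abundance, since the signal of a row also depends on its probes.

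Each gene came close to an end of the values seen on an array. Without LPS, Cxcl9 was only 0.70, 0.51 and 0.48 above the 1st percentile of unstimulated arrays 1, 2 and 3, whereas Cxcl10 was 2.01, 2.02 and 2.79 above it. With LPS, Cxcl10 was 0.57, 0.31 and 0.45 below the highest value of LPS arrays 1, 2 and 3, and Cxcl9 was 1.74, 1.46 and 1.85 below it. No detection level was given, so a dim Cxcl9 signal cannot be told from none, and its fold holds for the deposited scale. With each array's 1st percentile taken off on the linear scale and 16 added back, the Cxcl9 difference was 6.78, or 110.04-fold, and that of Cxcl10 was 5.49, or 44.9-fold.

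On the deposited scale the Cxcl10 difference minus the Cxcl9 difference was -0.47 ± 0.32 (log2, SE from the Cxcl10 minus Cxcl9 value of each array). The value was -0.13 in pair 1, -0.35 in pair 2 and -0.91 in pair 3, a spread of 0.40 (SD). The 2 differences meet opposite ends of the values seen, with Cxcl9 near the lower end without LPS and Cxcl10 near the upper end with LPS. The upper end is the brightest row of each array, and no ceiling of the signal was shown. The part of nearness to either end in the value was not tested, and no order of the 2 genes' responses is read from it. Without unstimulated array 3 the value was -0.16, and Cxcl10 ranked 9 among all rows. With the 1st percentile subtracted the value was -1.29 and Cxcl10 ranked 32. No test of this contrast is given, because both differences come from the comparison that chose the genes.

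Single arrays placed the pair differently, though unstimulated Cxcl9 lay so near the lower end that its order among arrays carries little. Unstimulated array 3 held the highest Cxcl10 signal, 0.77 above the next array, and the lowest Cxcl9 signal, which was only slightly under that of array 2. The array with the highest unstimulated Cxcl9 signal was array 1, 0.17 above the next. Deviations from the unstimulated mean were -0.27, -0.25 and 0.52 for Cxcl10 in arrays 1, 2 and 3, and 0.13, -0.046 and -0.082 for Cxcl9. Within the LPS group array 3 held the highest Cxcl10 value and the lowest Cxcl9 value, with deviations of 0.11 and -0.049. These are small, beside LPS group SDs of 0.095 for Cxcl10 and 0.045 for Cxcl9.

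The spread of Cxcl10 between unstimulated arrays was large for these data. Its SD of 0.45 was exceeded by 345 of the 74007 rows, and the median SD over all rows was 0.078. With LPS its SD of 0.095 was close to the median over all rows of 0.094. Cxcl9 had an SD of 0.045 with LPS, below that median, and 0.11 without LPS.

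**Figure D4:**
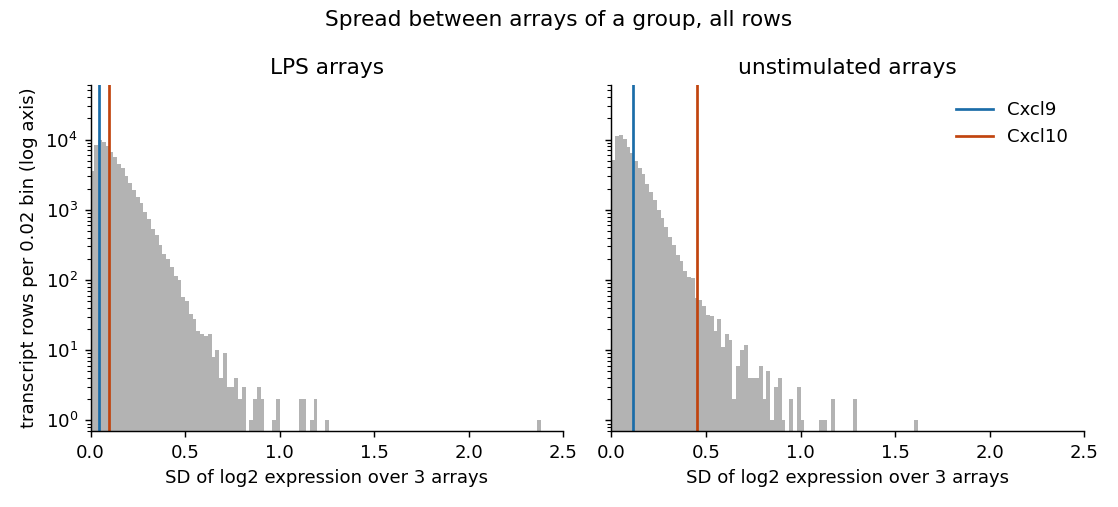
Distribution over all rows of the SD of log2 expression among the 3 LPS arrays (left) and the 3 unstimulated arrays (right), with the number of rows on a log axis. Lines mark Cxcl9 and Cxcl10; Cxcl10 lies in the upper tail of the unstimulated panel at 0.45 and near the middle of the LPS panel at 0.095.

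Few rows resembled Cxcl10 in unstimulated array 3. There, 37 rows exceeded both other unstimulated arrays by at least 0.5 on the log2 scale, and 7 rows did so by at least as much as Cxcl10, itself included. The same excess was reached by 49 rows in unstimulated array 1 and by 45 in unstimulated array 2. Of the 37 rows, 23 were at least 2-fold higher with LPS, and 2 were at least 2-fold lower. Both the 37 and the 23 include Cxcl10. Unstimulated array 1 exceeded the other two by 0.5 in 186 rows, of which 16 were at least 2-fold higher with LPS and 92 at least 2-fold lower. Unstimulated array 2 did so in 263 rows, of which 15 were higher and 13 lower. With the LPS mean set against the single array alone, 22 rows were at least 2-fold higher for unstimulated array 3. The count was 8 for unstimulated array 1 and 7 for unstimulated array 2. Over all rows, with no test, 2231 (3.01%) were at least 2-fold higher with LPS and 2185 (2.95%) at least 2-fold lower. Rows can be several transcripts of the same gene, and the 0.5 was set after the Cxcl10 values had been seen. The unstimulated arrays also enter both the excess and the LPS difference, so these counts are descriptions.

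The rows most like each gene were sought by the Euclidean distance between profiles over the 6 arrays, each centred on its own mean. The row nearest to Cxcl9 was ENSMUST00000031365_at, at a distance of 0.21, with 12.55 ± 0.051 in the LPS arrays and 7.02 ± 0.15 in the unstimulated arrays (SD, n = 3 each). Within 0.5 of Cxcl9 lay 5 rows, and 22 lay within 1. The row nearest to Cxcl10 was ENSMUST00000118006_at, at a distance of 0.33. It held 13.39, 13.35 and 13.54 in LPS arrays 1, 2 and 3, against 8.17, 8.02 and 9.07 in unstimulated arrays 1, 2 and 3. It thus shared the high value of unstimulated array 3 with Cxcl10, and whether it is a separate gene is not known from the files. Within 0.5 of Cxcl10 lay 3 rows, and 26 lay within 1. The distance between Cxcl9 and Cxcl10 was 0.96, and each was number 21 in the other's order of nearest rows. The profiles were not scaled, so a row near either gene must have a similar LPS difference. Both genes were chosen on that difference, so their nearness is only described.

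Genes of the receptor, interferon, NF-kB and TLR4 pathways and markers of macrophages and other cells were not described. The deposited table does not pair its transcript identifiers with gene symbols, and the gene table used here holds no Ensembl identifiers. The macrophage label was therefore not checked against marker genes, and the names of the 2 rows rest on the identifiers by which they were chosen.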

How the data were processed

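The authors deposited log2 expression values of transcript-level probe sets from each array, per the series text. PLIER and Affymetrix Power Tools are named in the submitters' processing notes, without versions. Not given in the sources used here are the probe-set annotation, the genome build, any offset and how arrays were normalized. Samples were grouped by title. Values were used as deposited, with no filter. Differences are LPS minus unstimulated, and their SE comes from both group SDs. limma 3.58.1 in R 4.3.3 (lmFit and eBayes, all 74007 rows, Benjamini-Hochberg threshold 0.05, log2 difference of at least 1) gave the background count only and was tested on simulated data. The series text gives each animal 1 culture per group. After group means were removed, same-numbered arrays had correlations of 0.50, 0.30 and 0.12 across rows, each above 0.1, so the numbers were taken as pairs. For LPS array 3 the closest was unstimulated array 2, at 0.21, which is also above 0.1. The correlations therefore do not settle pair 3. The SEs and the background count do not use the pairs. The printed rows were the 2 genes and the nearest row to each. The genes, lists and tests were chosen with earlier results of these data known. The number of arrays limits the precision. Figures were drawn with matplotlib 3.10.9.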

Additional observations from a re-analysis of the deposited data

How the results depend on the processing

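With groups this far apart, and chosen for it, no setting run here could turn the sign of either gene's difference, so only sizes are given. The Cxcl9 difference of 5.69 was 5.84 with median centring, 5.87 with cyclic loess, 5.87 with centring on rows above the median level, 5.50 with an offset of 16 and 6.78 with the 1st percentile subtracted and 16 added. Each moved by more than the SD between pairs, which for Cxcl9 was 0.11. The median over all rows moved from -0.022 to 0.13 with median centring and to 0.16 with centring on rows above the median level. The Cxcl10 difference lay between 5.09 and 5.49, within its SD between pairs of 0.36. Cxcl10 minus Cxcl9 lay between -1.29 (1st percentile subtracted) and -0.16 (without unstimulated array 3). Leaving out each array in turn gave 5.65 to 5.76 for Cxcl9, and Cxcl9 ranked 6 or 7 in every setting. Cxcl10 ranked 11 after quantile normalization, 9 without unstimulated array 3 and 32 with the 1st percentile subtracted. The count of rows at least 2-fold higher lay between 2137 and 2775 over 15 settings, which did not all test the same rows. The 2137 came from 37003 rows, with those below the median level left out, and 2138 came from the 71258 distinct sets of values. All other settings used 74007 rows, and their lowest count was 2140, with the offset of 16. The count was 2227 with the replicate block, which leaves both genes' differences as they were. The comparison of single unstimulated arrays was added after the data had been seen. Without a detection level, the depth of the Cxcl9 signal below its unstimulated value is not known.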
